A study of Mus musculus with 9 samples.

Results

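Lung RNA of mice with a chronic asthma model that received Bu-Shen-Yi-Qi formula (BSYQF), a Chinese herbal mixture, was compared with lung RNA of normal mice. The comparison took the 3 libraries of the BSYQF group and the 3 libraries of the control group, 6 of the 9 libraries sequenced, and asked genome-wide which genes stayed different from normal lung under treatment. The other 3 libraries came from mice with the same asthma model that received saline. All mice were BALB/c, an inbred laboratory strain, and from day 14 all were dosed by mouth, the BSYQF group for 6 weeks with 20 g of raw herbs per kg of body weight and the control and asthma groups with saline. No group of normal mice received the formula, so what the asthma model left and what the formula itself did to the lung cannot be told apart in this comparison. The BSYQF mice thus differed from the control mice in both the model and the treatment, and the sources used here do not give the allergen, the age of the mice or the composition of the mixture. Nothing in the labels says whether the 3 replicates of a group are separate mice, and the p-values below therefore measure only the spread among these libraries, part of which may be technical.

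In chronic allergic airway disease, T helper type 2 cells and their cytokines drive goblet cells to make mucus, macrophages to take up an alternatively activated state, and B cells to switch and secrete antibody. Lymphoid tissue with germinal centres can form in the inflamed lung, and the plasma cells that leave it secrete antibody that the epithelium carries into the airway. Airway remodelling is the slower change of the wall, with matrix deposition, growth of smooth muscle and altered epithelium, and the series title names it as the target of the formula.

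Levels are given below in CPM, read counts scaled by the size and composition of each library and listed in the order of replicates 1, 2 and 3. Changes are log2 fold changes ± SE, so that 1 is a doubling, and a gene was called when its adjusted p was under 0.05 (edgeR's quasi-likelihood test, Benjamini-Hochberg adjustment over the 14739 genes tested). The 6 libraries of the comparison held 16595243 to 18201541 counts assigned to genes, at which depth 3 counts equal 0.156 to 0.182 CPM. A low count here cannot be taken as low expression, since Sftpb, a surfactant gene that lung makes abundantly, had only 7 to 24 counts, where Sftpc had 238614 to 429543. On the first principal component of all 9 libraries, which held 51.6% of the variance, the control libraries lay at -51.9, -56.7 and -43.2, the BSYQF libraries at 40.5, 1.20 and -19.6 and the asthma libraries at 51.9, 76.0 and 1.77. BSYQF replicate 1 thus lay nearer to asthma replicates 1 and 2 than to the other BSYQF libraries on this component, and BSYQF replicate 2 lay next to asthma replicate 3. On the second component, which held 11.8%, the BSYQF libraries lay at -34.3, -16.8 and -36.4, apart from control (7.67 to 15.6) and asthma (11.7 to 22.7). Mitochondrial genes took 6.53% of the counts of BSYQF replicate 1, against 3.61% and 2.64% in BSYQF replicates 2 and 3 and 2.19% to 3.46% in the control libraries. Where leaving this library out moved a fitted fold printed below by more than 1.5 times, the value without it is given beside it.

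The called differences were almost entirely gains of expression. Of 14739 genes 246 were called (1.67%), of which 240 were higher (1.63%) and 6 were lower (0.0407%) in BSYQF lung, and 212 of the called genes changed at least 2-fold (210 higher, 2 lower). The median log2 fold change of all genes tested was -0.0025, and 2330 genes had an unadjusted p under 0.05 (1490 higher, 840 lower). For 3655 genes (24.8%) the 2 groups of libraries were fully separated, with all BSYQF libraries above control in 1915 (13.0%) and below it in 1740 (11.8%). Genes of mucus secretion, antibody secretion, germinal centres, cell division, macrophages, chemokines and secreted defence proteins were among those that rose. Of 51 gene lists examined, 22 had a called member. Counts of called or separated list members given below are to be read beside these shares over all genes.

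**Figure D1:**
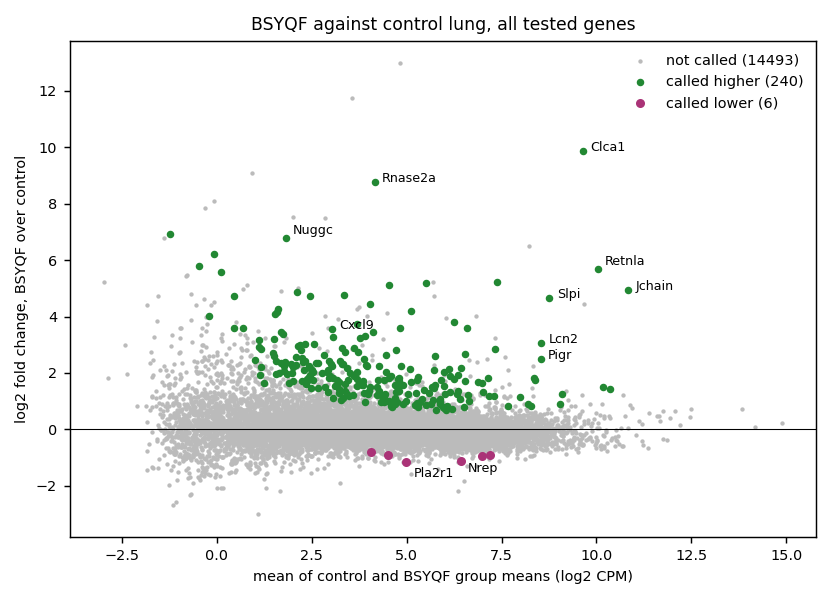
Log2 fold change of BSYQF over control (vertical axis) against the mean of both group means in log2 CPM (horizontal axis), 1 point per tested gene. Green points are the 240 genes called higher, purple points the 6 called lower and grey points the 14493 not called. The called genes lie almost all above 0, with Clca1, Rnase2a and Nuggc among the largest rises.

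Genes of antibody secretion were among those with the smallest p-values. Of 12 plasma cell genes tested 7 rose and 0 fell, beside 1.63% and 0.0407% of all genes, and their median log2 fold change was 2.08. Jchain, which joins the chains of polymeric IgA and IgM, was at 227, 46.04 and 71.7 CPM in control and 3594, 3626 and 3380.4 CPM in BSYQF. The groups were far apart and the BSYQF libraries lay close together, with replicate 1 between the other 2. Jchain rose by 4.94 ± 0.54 (adjusted p = 0.00506) and was called in all 9 fits that each left out 1 library. The gene lies on the minus strand of mm10 at chr5:88519809-88527891 and is protein coding, and it was at 2567, 3424 and 2592 CPM in asthma. In such bulk tissue, more cells of a type and more RNA per cell cannot be told apart.

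Mzb1, a chaperone of antibody assembly in the endoplasmic reticulum, was at 19.3, 12.9 and 11.7 CPM in control and 246, 117 and 167 CPM in BSYQF. Each BSYQF library was above each control library, with replicate 1 the highest. Mzb1 rose by 3.59 ± 0.48 (adjusted p = 0.0101). Derl3, a part of the machinery that removes misfolded proteins from that compartment, was at 4.92, 1.35 and 2.02 and 31.1, 22.7 and 28.2 CPM and rose by 3.30 ± 0.47 (adjusted p = 0.0101). The B cell coactivator Pou2af1, the transcription factor Irf4, the survival receptor Tnfrsf17 (BCMA) and the elongation factor partner Eaf2 rose by 1.92, 2.24, 3.20 and 3.28. Outside the list, Ccr10, a homing receptor of IgA plasma cells, rose by 2.34 ± 0.34 from 0.919, 1.23 and 1.06 CPM to 4.66, 5.11 and 6.51 CPM. Of the broader regulators of secretion, Xbp1 was not called (log2 fold change 0.71 ± 0.18, adjusted p = 0.0791), nor was the plasma cell regulator Prdm1 (0.35 ± 0.22, adjusted p = 0.456). Bhlha15, a further such regulator outside the list, rose by 1.82 ± 0.32 (adjusted p = 0.0213). It was at 3.73, 3.57 and 2.82 CPM in control and 13.4, 13.1 and 9.37 CPM in BSYQF, and was called in 4 of the 9 fits with a library removed. Of 13 endoplasmic reticulum folding genes 2 rose, Edem1 by 1.20 ± 0.19 and Sdf2l1 by 1.87 ± 0.37, and the chaperone Hspa5 was at 0.67 ± 0.25 (adjusted p = 0.225).

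Of 13 antibody constant region genes listed only the lambda light chain gene Iglc2 had a row under its symbol in the count table. It was at 33.7, 31.5 and 27.7 CPM in control and 151, 101 and 169.9 CPM in BSYQF, without overlap, and rose by 2.18 ± 0.27 (adjusted p = 0.00828). The level of IgA, IgG or IgE transcripts was therefore not analysed here. Of the antibody receptor genes given next, Pigr and Fcamr were called higher and Fcgrt was not. Pigr, the receptor that moves polymeric IgA and IgM into the airway, was at 92.0, 91.2 and 150.2 CPM in control, 726, 471 and 684 CPM in BSYQF and 537, 801 and 545 CPM in asthma. The lowest BSYQF library was a little below the asthma libraries and well above every control library. Pigr rose by 2.50 ± 0.27 (adjusted p = 0.00506), was called in all 9 fits with a library removed, and lies on the plus strand at chr1:130826684-130852249. Fcamr, a receptor for the Fc part of IgA and IgM, rose by 2.35 ± 0.38 from 2.16, 1.99 and 2.02 CPM to 12.6, 6.68 and 12.3 CPM. Fcgrt, the neonatal receptor for IgG, was at 0.20 ± 0.15 (adjusted p = 0.526).

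The region before the start of Derl3 is shown because it holds the endoplasmic reticulum stress element (ERSE), a motif bound by factors of the unfolded protein response. The sequence is the 250 bases before the RefSeq start on the plus strand of GRCm38.p6, chr10:75893148-75893397, read 5′ to 3′, with the motif in capitals, and the motif is read here on the opposite strand.
Derl3: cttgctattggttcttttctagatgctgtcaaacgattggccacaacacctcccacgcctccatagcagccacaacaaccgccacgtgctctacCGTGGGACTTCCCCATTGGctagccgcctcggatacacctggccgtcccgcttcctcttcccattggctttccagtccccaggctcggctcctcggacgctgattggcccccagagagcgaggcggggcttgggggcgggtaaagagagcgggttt
The motif was searched on both strands as CCAAT, 9 bases of any kind and CCACG, and the match ended 137 bases before the start. Of the 27025 genes that RefSeq gives, 0.13% had a match in a 250-base window. A match is a description of these letters and not a measured site.

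**Figure D2:**
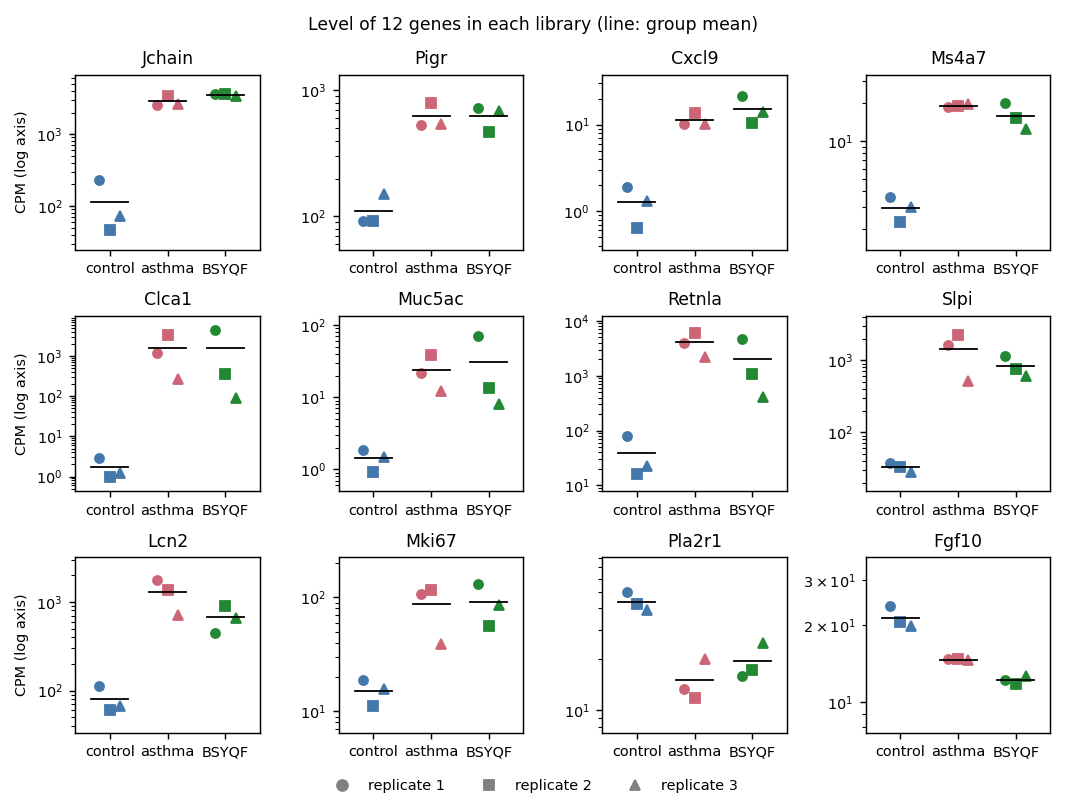
Level of 12 genes in CPM on a log axis in each library, with 1 marker shape per replicate, blue for control, red for asthma and green for BSYQF, and a line at the group mean. The BSYQF libraries of Jchain lie together between 3380 and 3626 CPM, while those of Clca1, Muc5ac and Retnla are spread out with replicate 1 the highest.

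Germinal centre genes rose in part. Of 11 genes tested 4 rose and 0 fell, and the median log2 fold change was 1.38. Gcsam, a signalling protein of germinal centre B cells, rose by 2.40 ± 0.32 from 1.84, 1.23 and 1.54 CPM in control to 10.9, 7.67 and 5.93 CPM in BSYQF, without overlap. Mybl1, a transcription factor of dividing germinal centre B cells, rose by 1.92 ± 0.38, and Il21, the cytokine by which follicular helper T cells drive them, was also called. Il21 had 1 count over the 3 control libraries and 101 over the BSYQF libraries, a ratio of 104 with a 95% exact interval of 18.2 to 4139 that covers counting error only.

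Nuggc, a nuclear GTPase of germinal centre B cells that was not on the list, had 3 counts in the control libraries together and 364 in the BSYQF libraries. Its levels were 0, 0.176 and 0 CPM in control, 10.4, 4.07 and 6.35 CPM in BSYQF and 3.74, 4.91 and 3.09 CPM in asthma, and the ratio of BSYQF to control was 125 with an interval of 42.3 to 607 for counting error. The call (adjusted p = 0.00549) was made in all 9 fits with a library removed. The list did not move as a whole: Bcl6, the master regulator of germinal centres, had a log2 fold change of -0.01 ± 0.17, Fas -0.27 ± 0.29 and S1pr2 -0.11 ± 0.18, none of them called.

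B cell markers were not called (0 of 10, median log2 fold change 0.83). Their summed level was 208 to 535 CPM in control and 454 to 793 CPM in BSYQF, so the groups overlapped. Ms4a1, which encodes CD20, was at 28.2, 53.4 and 30.4 CPM and 93.1, 53.8 and 96.2 CPM (log2 fold change 1.12 ± 0.30, adjusted p = 0.0917). Lymphoid tissue chemokines were not called either (0 of 6), with a summed level of 117 to 140.1 CPM in control and 253 to 429 CPM in BSYQF. Glycam1, a ligand made by the high endothelial venules of lymphoid tissue, was at 10.4, 0.351 and 0.745 CPM in control, 29.6, 66.3 and 208 CPM in BSYQF and 0, 0.672 and 2.87 CPM in asthma. It was highest in BSYQF replicate 3, and the difference from control was not called (4.71 ± 1.30, adjusted p = 0.125). The part of lymphoid tissue taken with the lung in the antibody and germinal centre results was not tested.

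Among T cell genes, receptors that restrain T cells rose while general markers were not called. Of 8 regulatory and checkpoint genes 3 rose, with a median log2 fold change of 1.35. Pdcd1, the receptor PD-1, was at 1.46, 1.404 and 1.06 CPM in control and 4.72, 6.22 and 5.72 CPM in BSYQF and rose by 2.08 ± 0.31 (adjusted p = 0.0108). The libraries did not overlap, and replicate 1 was the lowest of the BSYQF libraries. Lag3 and Tigit, other inhibitory receptors, rose by 2.36 ± 0.43 and 2.24 ± 0.44. Neither was called without BSYQF replicate 1 (adjusted p = 0.0656 and 0.0599). Foxp3, which defines regulatory T cells, was at 0.486, 2.52 and 1.22 CPM and 2.30, 2.44 and 4.22 CPM with overlapping groups (1.09 ± 0.73, adjusted p = 0.495). Of 9 T cell markers 0 were called (median 0.64), and the summed level of 257 to 400.4 CPM in BSYQF overlapped that of control, 178 to 259 CPM. Cd4 came nearest at 0.92 ± 0.21 (adjusted p = 0.0593). Of 9 cytotoxic and NK cell genes 0 were called and all had log2 fold changes below 0, with a median of -0.73. Their summed level of 92.6 to 175 CPM in BSYQF overlapped that of control, 104 to 289 CPM.

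Cxcl9, a ligand of CXCR3 that interferon gamma induces, was at 1.89, 0.644 and 1.33 CPM in control, 21.3, 10.4 and 13.8 CPM in BSYQF and 10.2, 13.8 and 10.1 CPM in asthma. The groups of control and BSYQF did not overlap. Cxcl9 rose by 3.54 ± 0.40 (adjusted p = 0.00537), was called in all 9 fits with a library removed and lies on the minus strand at chr5:92321347-92328079. Of 14 interferon gamma response genes 2 were called, Cxcl9 and the guanylate-binding protein gene Gbp5. Gbp5 rose by 0.80 ± 0.17 from 16.05, 19.7 and 18.2 CPM to 28.04, 29.8 and 35.8 CPM. The list median was 0.64, and 13 of the 14 genes had log2 fold changes above 0. In 7 of the 14 all BSYQF libraries lay above control, beside 13.0% of all genes. Of 12 type I interferon response genes 0 were called (median -0.13). Of 10 MHC class II genes H2-Eb1 rose, by 0.91 ± 0.19 (adjusted p = 0.0392), and in 9 of the 10 all BSYQF libraries lay above control, where this held for 13.0% of all genes. Outside the list H2-Eb2, another class II gene, rose by 2.97 ± 0.39 (adjusted p = 0.0101) from 1.08, 1.35 and 0.638 CPM to 7.45, 7.61 and 9.06 CPM.

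Mucus genes were raised in all treated libraries, by widely differing amounts. Of 12 mucus and goblet cell genes 5 rose and 0 fell, with a median log2 fold change of 3.99. In all 12 every BSYQF library lay above every control library, where this held for 13.0% of all genes and 1.63% were called higher. Clca1, a secreted protein of goblet cells, was at 2.92, 0.995 and 1.22 CPM in control and 4378, 351 and 88.7 CPM in BSYQF. Replicate 1 was above every asthma library (1198, 3402 and 275 CPM) and replicate 3 below them all, and even replicate 3 was far above control. Clca1 rose by 9.86 ± 1.88 (adjusted p = 0.0386), and by 6.98 without BSYQF replicate 1 (adjusted p = 0.0394). Muc5ac, a gel-forming mucin of airway mucus, was at 1.84, 0.936 and 1.49 CPM and 71.6, 13.4 and 8.01 CPM and rose by 4.43 ± 0.88 (adjusted p = 0.0407), or by 2.90 without that replicate (adjusted p = 0.0324).

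Slc26a4, the anion exchanger pendrin, rose by 4.20 ± 0.75, the trefoil factor Tff2 by 3.61 ± 0.61 and the ferlin Fer1l6 by 4.09 ± 0.65. Leaving out BSYQF replicate 1 gave 3.28 for Slc26a4, no longer called (adjusted p = 0.0558), and 2.72 for Tff2, still called (adjusted p = 0.027). Muc5b, the gel-forming mucin that normal airways also make, was at 39.01, 28.4 and 58.3 CPM and 395, 174 and 136 CPM without overlap and just missed the threshold (2.49 ± 0.54, adjusted p = 0.0574, or 1.88 without that replicate). Without it, 4 of the 12 mucus genes were called, and 0 were without any 1 of the control libraries. The differentiation factors Spdef and Foxa3 were not called (adjusted p = 0.124 and 0.0932).

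Effectors of type 2 inflammation were raised in the same uneven way. Of 13 type 2 effector and alternatively activated macrophage genes 5 rose, with a median log2 fold change of 3.16. Retnla, a secreted product of alternatively activated macrophages and epithelium, was at 81.4, 15.97 and 22.2 CPM in control, 4696, 1068 and 406 CPM in BSYQF and 3879, 6074 and 2173 CPM in asthma. Replicate 1 was at the asthma level and replicates 2 and 3 lay between the groups. Retnla rose by 5.69 ± 1.06 (adjusted p = 0.0338), or by 4.20 without BSYQF replicate 1 (adjusted p = 0.0487). The chemokines Ccl8, Ccl11 (eotaxin) and Ccl22 rose by 5.18 ± 0.77, 3.44 ± 0.69 and 2.32 ± 0.41. Without BSYQF replicate 1 the values were 4.57 for Ccl8, 2.17 for Ccl11 and 1.97 for Ccl22, of which the last was not called (adjusted p = 0.0656). Ccl8 was at 5.78, 0.527 and 0.958 CPM and 151, 52.7 and 63.4 CPM, without overlap. Pdcd1lg2, a ligand of PD-1 that alternatively activated macrophages make, was at 0.540, 0.527 and 0.213 CPM and 7.27, 1.74 and 2.55 CPM and rose by 3.16 ± 0.66. It was called in 3 of the 9 fits with a library removed, and without BSYQF replicate 1 it was at 2.32 and not called (adjusted p = 0.116).

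Chil3, a chitinase-like protein of macrophages, was at 89.3, 72.8 and 54.5 CPM in control and 4244, 227 and 240.4 CPM in BSYQF and was not called (4.44 ± 1.23, adjusted p = 0.125). Without BSYQF replicate 1 its log2 fold change was 1.69. Chil4 had 0 counts in the control libraries and 2788 in the BSYQF libraries, most of them in replicate 1 (159, 7.96 and 1.25 CPM). It was at least 955-fold higher against a limit of 3 counts over the control group and was not called (adjusted p = 0.165), and the list median is the same with Chil4 at this limit. Arg1, arginase 1, was not called either (4.12 ± 1.08, adjusted p = 0.108, or 2.55 without that replicate). Rnase2a, an eosinophil-associated ribonuclease, was at 0.108, 0 and 0.106 CPM and 86.4, 10.6 and 9.52 CPM and rose by 8.79 ± 1.33 (adjusted p = 0.0163), or by 6.96 without that replicate, folds that rest on few control counts. Cd209e, a lectin of the DC-SIGN family, had 2 control counts and 108 BSYQF counts, 73 of them in replicate 1, a ratio of 55.5 with an interval of 14.99 to 464 for counting error.

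The listed genes of the cytokine axis upstream were not called. Of 10 type 2 cytokine axis genes tested 0 were called (median 0.42), and Il4, Il5 and Il13 were too low to be tested, with no library above 11, 10 and 16 counts. Outside the list, Csf2rb, a chain shared by the receptors of interleukin 5, interleukin 3 and GM-CSF, was called higher (adjusted p = 0.0101). Its paralogue Csf2rb2 was called higher as well (adjusted p = 0.0107). Il33, the epithelial alarmin, was at 108, 62.6 and 83.5 CPM in control and 136, 149 and 101.5 CPM in BSYQF with overlapping groups (0.60 ± 0.29, interval -0.04 to 1.24), beside 380.1, 328 and 169 CPM in asthma. None of 6 eosinophil genes and none of 13 mast cell and basophil genes was called. The eosinophil granule gene Prg2 was at 2.36, 2.15 and 0.625 CPM in BSYQF (adjusted p = 0.0617), Epx had at most 3 counts, and Mcpt2, a mast cell protease, was at 0.270, 0.234 and 0.266 CPM and 20.7, 2.79 and 2.24 CPM (5.02 ± 1.25, adjusted p = 0.0887, or 3.25 without BSYQF replicate 1).

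The region before the start of Retnla is shown because it holds the palindromic motif bound by STAT6, the factor that interleukin 4 and interleukin 13 activate. These are the 250 bases before the RefSeq start on the plus strand of GRCm38.p6, chr16:48842359-48842608, 5′ to 3′, with the motif in capitals.
Retnla: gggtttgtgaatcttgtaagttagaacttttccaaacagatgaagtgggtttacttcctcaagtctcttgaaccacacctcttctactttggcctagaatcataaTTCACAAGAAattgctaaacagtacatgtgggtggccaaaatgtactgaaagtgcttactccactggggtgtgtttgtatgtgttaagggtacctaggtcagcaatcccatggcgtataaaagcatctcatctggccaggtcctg
The motif was searched on both strands as TTC, 4 bases of any kind and GAA, and the match ended 135 bases before the start. The same pattern stood in a window of 6.76% of the 27025 genes, so a match is common. No STAT6 binding was measured in this study.

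Macrophage genes of the interstitial type rose and did so in all treated libraries. Of 8 interstitial macrophage genes 5 rose, beside 1.63% of all genes, with a median log2 fold change of 1.66. In all 8 every BSYQF library lay above control, where this held for 13.0% of all genes. Ms4a7, a membrane protein of these macrophages, was at 3.57, 2.28 and 2.98 CPM in control, 20.2, 15.2 and 12.4 CPM in BSYQF and 18.4, 19.02 and 19.8 CPM in asthma. The control and BSYQF groups did not overlap. Ms4a7 rose by 2.43 ± 0.25 (adjusted p = 0.00506), was called in all 9 fits with a library removed and lies on the minus strand at chr19:11321039-11336146. The genes of the 3 chains of C1q, which starts the classical complement pathway, rose together, C1qa by 1.83 ± 0.26, C1qb by 1.74 ± 0.24 and C1qc by 1.88 ± 0.27. C1qc was at 43.6, 19.9 and 26.6 CPM and 133, 117 and 81.1 CPM. The same number of the list, 5 of 8, was called without BSYQF replicate 1, and 1 was without control replicate 2 or 3.

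Of 11 further complement genes 2 rose, C3, the central component, by 1.43 ± 0.26 and C3ar1, the receptor of its fragment C3a, by 2.49 ± 0.34. C3 was at 1038, 553 and 528 CPM in control and 1989.5, 2007 and 1716 CPM in BSYQF. Genes of lipid-laden macrophages were not called (0 of 9, median log2 fold change 2.29). Mmp12, the macrophage elastase, was at 7.08, 5.73 and 6.81 CPM in control and 1615, 96.4 and 65.7 CPM in BSYQF, so that replicate 1 was far above the others (6.50 ± 1.55, adjusted p = 0.0833, or 3.62 without it). Gpnmb, a membrane glycoprotein of such cells, was at 530.2, 50.9 and 58.1 CPM in BSYQF (4.02 ± 0.98, adjusted p = 0.088, or 2.04 without replicate 1). Of 11 alveolar macrophage genes the lysosomal protease gene Ctsd rose, by 1.25 ± 0.23, and the median was 0.08.

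Chemokines that draw neutrophils were above the control level. Of 16 inflammatory cytokine and chemokine genes 5 rose and 0 fell, with a median log2 fold change of 2.21. They were Cxcl1, Cxcl2, Cxcl3 and Cxcl5, ligands of CXCR2, and Il1rn, the antagonist of the interleukin 1 receptor. Cxcl1 was at 4.05, 1.11 and 3.51 CPM in control and 17.8, 28.4 and 18.3 CPM in BSYQF and rose by 2.88 ± 0.43 (adjusted p = 0.0105). The BSYQF libraries were all above control and replicate 2 was the highest. Cxcl2 was at 0.811, 0.585 and 2.45 CPM and 23.3, 104.5 and 8.28 CPM and rose by 5.12 ± 0.997, again with replicate 2 the highest. Cxcl3 was at 0.324, 0.351 and 0.479 CPM and 6.12, 22.8 and 2.71 CPM and rose by 4.74 ± 0.85. Cxcl5 rose by 4.78 ± 0.87 and Il1rn by 2.05 ± 0.42. Cxcl1 was called in 8 of the 9 fits with a library removed, Cxcl3 in 6, Cxcl5 in 4 and Cxcl2 in 2.

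Cytokines at the head of this response were not called: Tnf was at a log2 fold change of 2.78 ± 0.63 (adjusted p = 0.0555), Il1b 1.05 ± 0.44 and Il6 1.21 ± 0.64. Nfkbiz, a nuclear cofactor of NF-kB, rose by 1.46 ± 0.18 from 31.4, 25.2 and 27.3 CPM to 56.9, 89.3 and 84.8 CPM (adjusted p = 0.00828). Some markers of the neutrophil itself differed between the BSYQF libraries. S100a8 was at 107, 159 and 39.6 CPM in control and 34.7, 285 and 607 CPM in BSYQF, with replicate 1 below and replicates 2 and 3 above control, and was not called (1.60 ± 0.85, adjusted p = 0.4). The granule gene Ngp was at 4.97, 11.6 and 286 CPM in BSYQF, so that replicate 3 held most of it. Of 10 neutrophil genes 1 was called, Lcn2, which epithelium also makes. The summed level of the 10 was 269 to 860 CPM in control and 613 to 2727 CPM in BSYQF. Cd177, a surface protein of neutrophils outside the list, rose by 3.79 ± 0.52 (adjusted p = 0.0102). It was at 7.46, 11.2 and 12.02 CPM in control and 179, 82.6 and 163 CPM in BSYQF, without overlap. Cd177 was called in 6 of the 9 fits with a library removed. Pglyrp1, a granule protein of neutrophils also outside the list, was called higher as well (adjusted p = 0.0173).

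The regions before Cxcl1, Cxcl2 and Cxcl3, neighbours on chromosome 5, are shown because all 3 genes rose and all 3 hold the same NF-kB motif near the start. Each is the 250 bases before the RefSeq start on the plus strand of GRCm38.p6, 5′ to 3′, with the motif in capitals: chr5:90890995-90891244 for Cxcl1, chr5:90903649-90903898 for Cxcl2 and chr5:90785851-90786100 for Cxcl3.
Cxcl1: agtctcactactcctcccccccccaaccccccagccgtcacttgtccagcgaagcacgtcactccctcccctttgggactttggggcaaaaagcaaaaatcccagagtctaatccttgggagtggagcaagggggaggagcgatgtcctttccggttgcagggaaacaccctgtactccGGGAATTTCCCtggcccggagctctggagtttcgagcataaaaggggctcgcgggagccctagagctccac
Cxcl2: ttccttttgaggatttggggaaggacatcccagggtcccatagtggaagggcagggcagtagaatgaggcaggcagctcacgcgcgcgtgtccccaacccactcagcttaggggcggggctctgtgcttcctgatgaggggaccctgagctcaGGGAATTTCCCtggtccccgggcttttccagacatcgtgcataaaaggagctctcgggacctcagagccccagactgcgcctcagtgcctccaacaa
Cxcl3: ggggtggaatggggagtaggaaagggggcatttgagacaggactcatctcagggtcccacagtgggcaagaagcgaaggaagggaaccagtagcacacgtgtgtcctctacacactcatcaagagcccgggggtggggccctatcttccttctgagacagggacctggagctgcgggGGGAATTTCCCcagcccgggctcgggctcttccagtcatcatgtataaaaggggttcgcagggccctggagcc
The motif was searched on both strands as GGGA, 2 bases of any kind and TTCC. In each gene the run GGGAATTTCCC held a match on either strand, the 2 matches overlapping, and the nearer of them ended 60, 86 and 62 bases before the start of Cxcl1, Cxcl2 and Cxcl3. Of 27025 genes 1.36% held the motif in a window. These genes are close copies of each other, and how reads shared between copies were counted is not stated.

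Secreted defence and acute phase proteins were higher than in control lung. Of 9 acute phase genes 4 rose, with a median log2 fold change of 2.93. Lcn2, which starves bacteria of iron, was at 113, 60.0 and 67.2 CPM in control, 451, 893 and 664 CPM in BSYQF and 1782, 1372 and 709.9 CPM in asthma. The BSYQF libraries lay above all control libraries and replicate 1 was the lowest of them. Lcn2 rose by 3.06 ± 0.39 (adjusted p = 0.00926). Saa3, a serum amyloid A made in inflamed tissue, was at 17.7, 3.92 and 4.36 CPM and 198, 654 and 122 CPM and rose by 5.23 ± 0.93. Saa1 and Orm2 were also called, with rises of 4.74 and 2.93 (adjusted p = 0.0338 and 0.0336). Without BSYQF replicate 1 none of Saa3, Saa1 and Orm2 was called (adjusted p = 0.0531, 0.0745 and 0.0574). Haptoglobin (Hp) was at 975, 839.7 and 1230.1 CPM in control and 924, 1255 and 989 CPM in BSYQF, with overlapping groups (0.06 ± 0.22, interval -0.43 to 0.55), beside 1957, 2635 and 1867 CPM in asthma.

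Slpi, an inhibitor of neutrophil elastase secreted by airway epithelium, was at 37.9, 33.3 and 28.5 CPM in control and 1146, 753 and 602 CPM in BSYQF. The lowest BSYQF library was many times above the highest control library. Slpi rose by 4.65 ± 0.50 (adjusted p = 0.00506), was called in all 9 fits with a library removed, and was at 1635, 2207 and 509 CPM in asthma. Reg3g, an antibacterial lectin, was at 22.3, 40.2 and 54.9 CPM and 225, 184 and 437 CPM and rose by 2.85 ± 0.54 (adjusted p = 0.0338). It was the 1 of 10 club cell and airway secretory genes called. A2ml1, a protease inhibitor, rose by 1.91 ± 0.27 from 8.97, 11.3 and 10.2 CPM to 29.1, 28.3 and 56.8 CPM, beside 13.4, 17.7 and 15.7 CPM in asthma. Lrg1, Cp (ceruloplasmin) and the cystine transporter Slc7a11 rose by 1.63 ± 0.29, 0.90 ± 0.19 and 2.32 ± 0.48. Slc7a11 was the 1 of 10 NRF2 antioxidant genes called, and Hmox1 was at 1.29 ± 0.60 (adjusted p = 0.332).

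Genes of dividing cells stayed above normal lung. Of 15 proliferation genes 9 rose, beside 1.63% of all genes, with a median log2 fold change of 1.95. In all 15 every BSYQF library lay above control, where this held for 13.0% of all genes. Mki67, a marker of cycling cells, was at 18.8, 11.1 and 15.8 CPM in control and 132, 55.9 and 86.3 CPM in BSYQF. The libraries did not overlap and replicate 1 was the highest. Mki67 rose by 2.59 ± 0.44 (adjusted p = 0.0203), Top2a, the topoisomerase of replicating cells, by 2.13 ± 0.29, Birc5 by 2.62 ± 0.42 and the cyclin Ccna2 by 2.33 ± 0.37. Pclaf, a partner of the replication clamp that was not on the list, rose by 3.26 ± 0.40 and was called in 8 of the 9 fits with a library removed. The clamp itself, Pcna, was at 0.59 ± 0.19 (adjusted p = 0.172). Without BSYQF replicate 1, 3 of the 15 were called. Which cells divided cannot be read from bulk tissue.

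**Figure D3:**
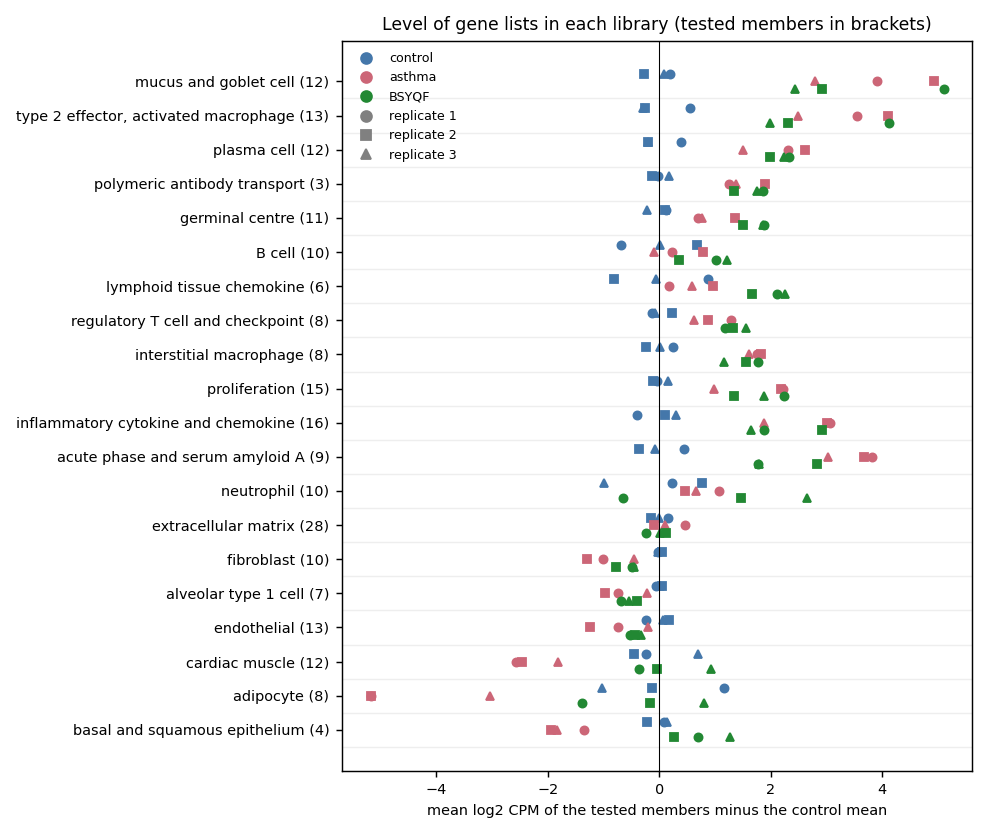
Mean log2 CPM of the tested members of 20 gene lists in each library, as the difference from the control mean (horizontal axis), with blue for control, red for asthma and green for BSYQF and 1 marker shape per replicate. BSYQF libraries lie right of all control libraries in the mucus, plasma cell, germinal centre, macrophage and proliferation lists, and replicate 1 is far to the right for mucus. The matrix list is near 0 in control and BSYQF, while asthma replicate 1 is at 0.464.

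The 6 genes called lower were Pla2r1, Nrep, 1190002N15Rik, Chn1, Pdgfb and Fgf10. Nrep, a protein of regenerating neurons and of fibroblasts, was at 103, 115 and 134 CPM in control and 58.3, 51.3 and 53.1 CPM in BSYQF and fell by 1.11 ± 0.15 on the log2 scale (adjusted p = 0.0101). The groups did not overlap and the BSYQF libraries were close together. Pla2r1, a receptor of secreted phospholipase A2, was at 49.8, 42.7 and 39.3 CPM and 16.05, 17.2 and 25.1 CPM (log2 fold change -1.17 ± 0.24, adjusted p = 0.0338). Fgf10, the growth factor by which lung mesenchyme maintains epithelium, was at 23.8, 20.5 and 19.8 CPM in control, 12.2, 11.8 and 12.7 CPM in BSYQF and 14.7, 14.7 and 14.6 CPM in asthma, with no overlap between any of these groups. Its log2 fold change was -0.80 ± 0.16 (adjusted p = 0.0338), and it was the 1 of 10 fibroblast genes called. Pdgfb, a mitogen of pericytes and smooth muscle, was at 162, 199 and 206 CPM and 113, 101 and 91.1 CPM (-0.89 ± 0.17, adjusted p = 0.0323). 1190002N15Rik was at 148, 178 and 168 CPM and 84.2, 79.6 and 95.03 CPM, and Chn1, a Rac GTPase-activating protein, at 33.02, 29.8 and 26.4 CPM and 13.7, 17.4 and 16.4 CPM, both without overlap. Nrep was called in 7 of the 9 fits with a library removed, Pla2r1 in 3, and Chn1, Pdgfb and Fgf10 in 2 each.

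The listed matrix genes, which bear on airway remodelling, did not differ detectably. Of 28 extracellular matrix genes 0 were called, their median log2 fold change was -0.01, and DESeq2, which called more genes in all, called 0 of them higher and 1 lower. Outside the list, the matrix protein genes Cilp and Thbs4 and the hyaluronan synthase gene Has3 were called higher (adjusted p = 0.00987, 0.0338 and 0.0258). Col1a1, the main fibrillar collagen chain, was at 207, 179 and 215 CPM in control and 167, 333 and 228 CPM in BSYQF. The groups overlapped, and the 95% interval of the log2 fold change was -0.27 to 0.83 around 0.28. Col3a1 was at 0.35 (interval -0.19 to 0.88), the crosslinking enzyme Lox at 0.65 (0.01 to 1.30) and the proteoglycan Vcan at 0.66 (-0.11 to 1.42). Tenascin C (Tnc), a matrix protein of injured airways, was at 12.4, 10.3 and 17.3 CPM in control, 22.3, 24.2 and 14.7 CPM in BSYQF and 159, 89.7 and 24.8 CPM in asthma. Its interval against control, -0.59 to 1.81, still holds a rise of considerable size. Col12a1 was lower in every BSYQF library than in every control library, at 59.5, 47.2 and 34.9 CPM and 14.5, 18.2 and 31.3 CPM, and was not called (-1.14 ± 0.32, adjusted p = 0.112). These intervals do not show that matrix expression was equal to that of normal lung.

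Of 17 matrix proteases and inhibitors 0 were called (median 0.14). Timp1, an inhibitor of matrix proteases, was at 5.35, 2.63 and 4.15 CPM in control, 46.9, 49.4 and 16.4 CPM in BSYQF and 459, 396 and 60.7 CPM in asthma. Every BSYQF library was above control and below asthma. Against control the log2 fold change was 3.21 ± 0.73 (adjusted p = 0.0673), just short of the threshold. Of 19 TGF-beta and activin genes only Inhba, the subunit of activin A, rose, by 2.89 ± 0.56 from 3.40, 1.87 and 1.65 CPM to 16.6, 28.6 and 6.35 CPM (adjusted p = 0.0338), and it was called in 3 of the 9 fits with a library removed. Tgfb1 was at 0.30 ± 0.24 (interval -0.22 to 0.83). Of 12 smooth muscle genes 0 were called (median -0.09), and the actin gene Acta2 was at 149, 154 and 258 CPM and 200.1, 254 and 163 CPM (0.14, interval -0.42 to 0.69).

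Genes of the alveolar wall were somewhat lower in BSYQF lung as far as levels go, with 1 of them called. All 7 alveolar type 1 cell genes had log2 fold changes below 0 (median -0.57), and in 6 of them every BSYQF library was below control, where this held for 11.8% of all genes. All 10 fibroblast genes were below 0 (median -0.59), as were 12 of 13 endothelial genes (median -0.48). Npnt, nephronectin of the alveolar matrix, was at 651, 781 and 734 CPM in control, 486, 391 and 480.3 CPM in BSYQF and 262, 195 and 410.4 CPM in asthma. It was lower in every BSYQF library than in control and was not called (-0.67 ± 0.24, adjusted p = 0.216). The caveolar gene Cav1 was at -0.57 ± 0.30 (adjusted p = 0.382). A share of RNA from these cells that is smaller because immune and mucus RNA is larger cannot be told apart from lower expression. Alveolar type 2 cell genes were not called (0 of 10, median 0.04).

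**Figure D4:**
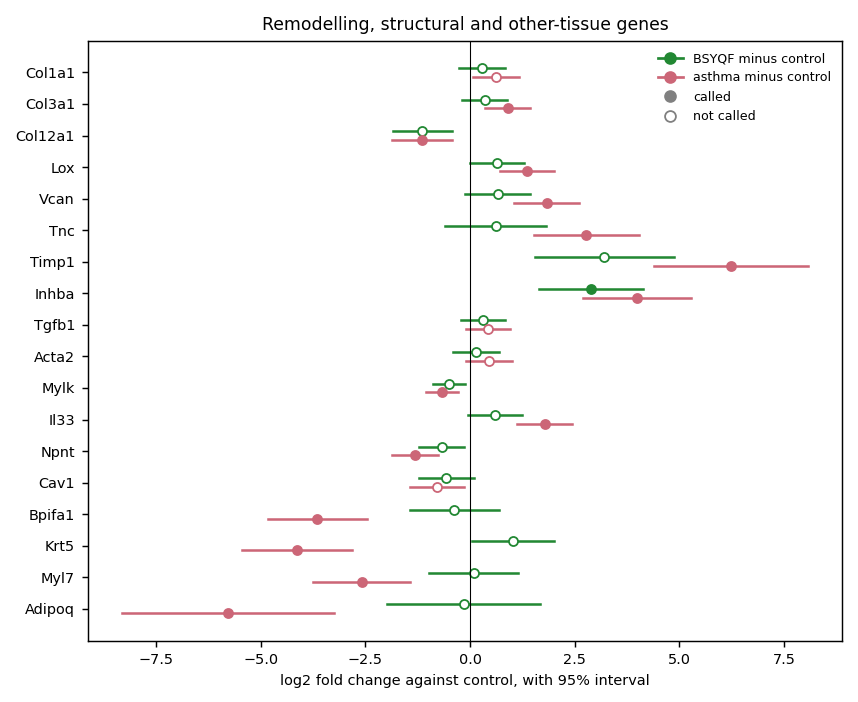
Log2 fold change against control with its 95% interval for 18 genes, in green for BSYQF and in red for asthma, with filled points for called genes and open points for the others. For BSYQF only Inhba is called, while the intervals of Col1a1, Col3a1, Tnc, Acta2, Bpifa1, Myl7 and Adipoq span 0.

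Markers of tissue attached to the lung, which are far below control in the asthma libraries, were near the control level in BSYQF. Of 12 genes of cardiac muscle, a tissue that in mice also sheathes the pulmonary veins, 0 were called (median 0.05). Their summed level was 481 to 1093 CPM in control, 492 to 1475 CPM in BSYQF and 138 to 253 CPM in asthma. Myl7, an atrial light chain, was at 54.7, 40.9 and 119 CPM and 54.4, 52.8 and 120.4 CPM. Of 8 adipocyte genes 0 were called (median -0.14), and their summed level was 121 to 599 CPM in control, 126 to 507 CPM in BSYQF and 19.7 to 41.6 CPM in asthma. Adiponectin (Adipoq) was at 38.3, 11.2 and 6.28 CPM and 5.45, 11.04 and 33.5 CPM. The part of such tissue in the lists that were lower was not tested.

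In the airway epithelium, Bpifa1, a secreted defence protein, was at 434, 609 and 621 CPM in control, 269.9, 524 and 487 CPM in BSYQF and 17.5, 30.8 and 83.9 CPM in asthma. The control and BSYQF groups overlapped (-0.38 ± 0.48, interval -1.44 to 0.68). Krt5, a keratin of basal cells, was at 2.05, 2.34 and 2.77 CPM in control and 5.09, 2.73 and 6.77 CPM in BSYQF and was not called (1.03 ± 0.44, adjusted p = 0.293). Against asthma, where it was at 0.226, 0.134 and 0.0448 CPM, it was the 1 gene called of all tested (0.00678%), with a log2 fold change of 5.15 ± 0.60 (adjusted p = 0.0431). Of 14 ciliated cell genes 0 were called (median 0.29).

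Other lists without a called member were glycolysis and hypoxia, respiratory chain, xenobiotic metabolism, metallothionein and glucocorticoid response, circadian clock, immediate early, skeletal muscle, erythroid and thymocyte genes. Their median log2 fold changes ran from -0.51 for the clock and erythroid genes to 0.84 for the immediate early genes. In the clock list BSYQF replicate 1 stood apart: Dbp, an output gene of the clock, was at 41.4, 139.9 and 122 CPM in control and 5.09, 95.3 and 52.9 CPM in BSYQF, and Nr1d1, a repressor within the clock, at 50.4, 173 and 187 CPM and 7.57, 90.9 and 69.0 CPM. Both were lowest in that replicate, and neither was called (adjusted p = 0.58 and 0.435). The sources used here do not give the hour at which lungs were taken.

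The asthma libraries were set against the same control libraries, so the 2 comparisons share their controls and are given only side by side. In asthma 1869 genes were called (12.7%), 1213 higher (8.23%) and 656 lower (4.45%), against 246 in BSYQF. A smaller count of calls is not a test of the difference between BSYQF and asthma, for which 1 gene was called and 1171 had an unadjusted p under 0.05. Among lists, mucus genes had 11 of 12 called higher in asthma and 5 of 12 in BSYQF, plasma cell genes 9 and 7 of 12, acute phase genes 9 and 4 of 9, proliferation genes 13 and 9 of 15, and germinal centre genes 3 and 4 of 11. Extracellular matrix genes had 5 called higher and 1 lower in asthma and 0 in BSYQF.

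Of the 246 called genes, those furthest from asthma by unadjusted p lay on either side of it. None of them was called against asthma (adjusted p = 0.209 to 0.416), and since they were chosen by that p their differences are a description. Above asthma were Clca3b, a paralogue of Clca1, at 5.69, 2.90 and 15.9 CPM beside 1.08, 0.605 and 0.628 CPM in asthma and 0.973, 1.35 and 1.17 CPM in control, and A2ml1, Nfkbiz, Gbp5 and Hpse, the enzyme heparanase. Hpse was at 12.6, 10.4 and 11.3 CPM in control, 17.1, 15.9 and 15.7 CPM in asthma and 30.0, 22.02 and 29.2 CPM in BSYQF. Clca3b and Gbp5 were not called in asthma against control (adjusted p = 0.519 and 0.641). Below asthma and still above control were Lrg1, Cp, the scavenger receptor gene Msr1 and Saa1, among others. Msr1 was at 6.11, 4.45 and 5.001 CPM in control, 25.5, 32.1 and 17.5 CPM in BSYQF and 115, 97.6 and 28.5 CPM in asthma.

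How many genes were called depended strongly on single libraries. Without control replicate 1, 2 or 3 the count fell from 246 to 72, 17 and 9, and without BSYQF replicate 2 it fell to 135. Without BSYQF replicate 1 there were 101 higher and 1 lower. Without asthma replicate 1 it was 146, and without asthma replicate 3 it rose to 563 (470 higher, 93 lower). The 3 groups share 1 estimate of the spread, the filter and the scaling, and which of these moved the count was not tested. By the rule for named genes 68 called genes were picked, and 5 of these were called under all settings tried, the 9 fits without a library included: Jchain, Nuggc, Cxcl9, Pigr and Ms4a7. Of the 68, 40 were still called without BSYQF replicate 1, 47 without replicate 2 and 59 without replicate 3, and 26, 8 and 6 without control replicates 1, 2 and 3. The log2 fold change of none of the named genes changed sign in a setting that called it. The tool mattered as much, with 826 calls by DESeq2 (678 higher, 148 lower) and 90 by limma voom (87 higher, 3 lower).

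**Figure D5:**
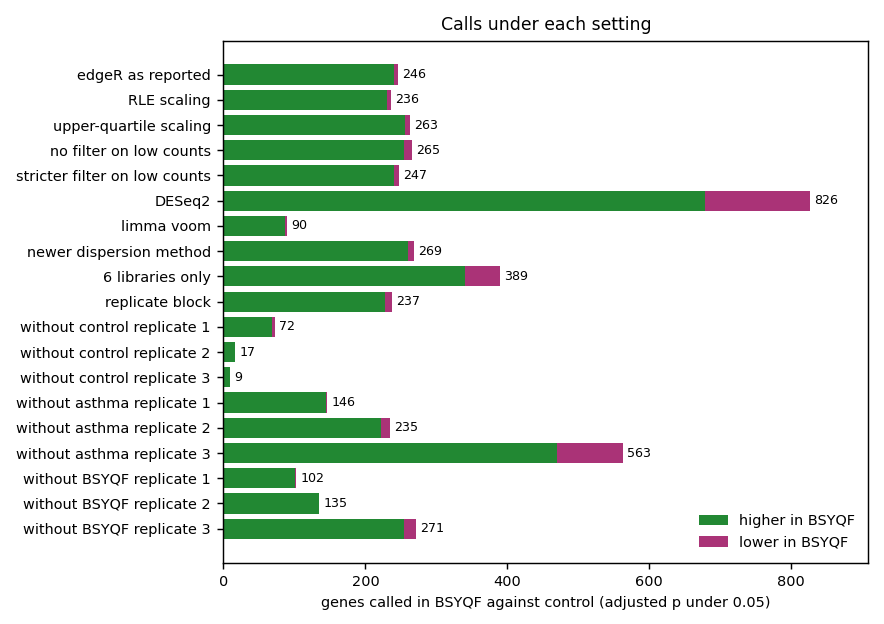
Number of genes called in BSYQF against control under each setting, with green for higher and purple for lower in BSYQF and the total beside each bar. The total ranges from 9 without control replicate 3 to 826 by DESeq2, and genes called higher outnumber those called lower under every setting.

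In the authors' deposited table of BSYQF against control 896 genes stood, 773 of them higher and 123 lower in BSYQF, and 620 of these passed an adjusted p of 0.05 there (572 higher, 48 lower). Of the 825 of them tested here all 825 had the same sign, as the use of the same libraries all but fixes, and 211 were called here. Another 35 genes called here were not in that table, in which no gene had an absolute log2 fold change under 1.001 or a p above 0.04998. Of these 35, 34 changed less than 2-fold here.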

How the data were processed

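RNA of 9 BALB/c lungs was extracted with Trizol, and each library was made from 3 µg with a NEBNext Ultra kit for Illumina, per the labels' protocols. STAR, HTSeq, cutadapt, FastQC and DESeq2 and the build mm10 are named, without roles, in the submitters' processing notes. The versions, gene annotation, strand setting and handling of shared reads were not given in the sources used here. Whole-number counts were deposited by the authors for 21983 gene symbols without normalization, and these counts entered every test. The authors also deposited a table of this comparison with log2 fold changes and p-values per the file headers, used only for the counts and signs of its genes. The deposited tables hold 36 columns of library values that were not used.

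Groups and replicate numbers come from the labels. Genes were filtered with filterByExpr, given TMM factors (0.914 to 1.07) and put into 1 edgeR model of all 3 groups (edgeR 4.0.16, R 4.3.3; robust quasi-likelihood with the older dispersion method), in which the groups share the spread (biological coefficient of variation 0.244) and no replicate block is used. Calls needed an adjusted p under 0.05 (Benjamini-Hochberg, 14739 genes). SEs are log2 fold changes over the root of the F statistic. Principal components used log2 CPM with a prior count of 2. The fit was tested on simulated data. Total counts were 16286385 to 22819199 per library over all 9, and 3 counts equal 0.134 to 0.202 CPM. Intervals for counts and the limit for a count of 0 cover counting error only.

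The comparison, the 51 gene lists (573 genes, 558 in the table, 521 tested) and the tests were chosen with earlier results of these data known. The rule for named genes took the called genes of largest rise and of largest fall, at most 12 each (the higher group's mean 1 CPM or more, no overlap of libraries, unnamed models and antibody or T cell receptor variable segments left out), up to 4 called members of each list by smallest p or else the member with the smallest p, topic genes such as Muc5ac, Clca1, Col1a1 and Acta2, genes called against asthma, and the 10 called genes furthest from asthma. Some genes that the rule picked are not reported here. All further genes in the text were picked with their values in view. GENCODE vM21 (GRCm38, mm10) gave the coordinates, and 14683 of the 14739 tested symbols matched 1 gene there. All 246 called genes matched, 245 of them protein coding, and 83 overlap a gene on the other strand, from which their reads cannot be told apart if strand was not used. Promoter windows are from RefSeq (GRCm38.p6), with a window for 11456 of the tested genes.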

Additional observations from a re-analysis of the deposited data

How the results depend on the processing

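The number of genes called in BSYQF against control stayed within 1.5 times of 246 with RLE scaling (236), upper-quartile scaling (263), no filter (265), a stricter filter (247) and edgeR's newer dispersion method (269). Without the filter 10 genes were lower. DESeq2 called 826 (678 higher, 148 lower, so 82.1% were higher against 97.6%), with 3315 in asthma against control and 123 in BSYQF against asthma. By limma voom 90 were called (87 higher, 3 lower) and 0 against asthma, where 1171 had an unadjusted p under 0.05 by edgeR. With the 6 libraries of the comparison alone 389 were called, 49 of them lower (87.4% higher), and with the 6 of BSYQF and asthma 0. In the fits that left out 1 library, calls ran from 9 to 563 in BSYQF against control (9 to 470 higher, 0 to 93 lower), from 171 to 4262 in asthma against control and from 0 to 114 in BSYQF against asthma. Genes without overlap between control and BSYQF ran from 3695 to 6680 (without BSYQF replicate 3), against 3655 with all libraries. Where a control or BSYQF library was left out, the smaller groups make separation easier. Replicate numbers are shared between groups, but control and BSYQF libraries of the same number did not deviate together (correlations of -0.044, -0.034 and -0.259), so the numbers were not taken as pairs. With a replicate block 237 genes were called, 10 of them lower, and 15 in BSYQF against asthma, and 190 of the 246 genes remained called. Of 38 named genes that were not called, 18 were called in some setting. Why the counts moved was otherwise not tested. With 3 libraries a group, a median SE of 0.223 on the log2 scale limits what small differences can be seen.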
